A study of Mus musculus with 2 samples.

Results

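The cells described here are Gata1- blood progenitors that had begun to make embryonic globin messages in chimeric mouse embryos. They were chosen from the tdTom+ library by measured values: the embryonic globins Hba-x, Hbb-bh1 and Hbb-y together took at least 0.5% of the spliced UMIs (unique molecules) of a cell, and the cell held at most 2 spliced UMIs of Spi1, a myeloid transcription factor. The rule found 1042 cells, 11.6% (exact binomial 95% interval 10.9 to 12.3%) of the 8981 tdTom+ cells and part of 18233 cells in all. The same rule applied to the tdTom- library gave 1786 of 9252 cells (19.3%, 18.5 to 20.1%). The globin share, the Spi1 count and the library therefore describe the choice of the cells and are no finding about them, and intervals here and in what follows cover counting error only.

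Male embryonic stem cells derived from a cross of ROSA26tdTomato and C57BL/6 mice were given a 38 bp frameshift in exon 4 of Gata1 and injected into C57BL/6 blastocysts. The mutant line was 1 clone. Cells of 6 chimeric embryos were pooled and sorted on the red fluorescent protein, which gave a tdTom+ fraction of mutant cells, labelled E8.5, and a tdTom- fraction of wild-type host cells, labelled E8.6. Each fraction was 1 10x library, so genotype, descent from the stem cell line, sex of the cells, labelled age and library cannot be told apart between them, and no p-value is given for any comparison between them because no repeat of either library was used.

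GATA1 is the zinc-finger transcription factor that red cell precursors need to mature, and it binds the letters GATA together with the cofactor FOG1, encoded by Zfpm1. In early blood progenitors many of the same sites are held by GATA2, which gives way to GATA1 as the cells commit. The first red cells of the mouse embryo arise in the yolk sac and make embryonic alpha-like globin from Hba-x and embryonic beta-like globin from Hbb-bh1 and Hbb-y before adult globins take over.

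The 6 stretches of 250 bases that follow, each just before a gene start, are shown because they precede genes on which the comparisons turn: 2 of the globins that chose the cells (Hba-x, Hbb-y), an adult beta globin and a heme enzyme that stood lower in the progenitors (Hbb-bs, Alas2), and 2 genes that stood higher (Slc32a1, Cpa3). They come from the RefSeq promoter table of build GRCm38.p6, each 5′ to 3′ on the strand of its gene, and capitals mark the letters AGATAA on either strand, or the same run with T in place of its first A, with G in place of its last A, or with both. Such letters are in 26.5% of the 32851 windows of this length in the table, and a match is a description of the sequence only. All 6 windows shown hold a match, but windows of other genes in the comparisons, such as Hbb-bh1, Gata2 and Car2, are not shown. The 6 are therefore no sample to set against that share.
Hba-x (chr11:32276350-32276599, plus strand): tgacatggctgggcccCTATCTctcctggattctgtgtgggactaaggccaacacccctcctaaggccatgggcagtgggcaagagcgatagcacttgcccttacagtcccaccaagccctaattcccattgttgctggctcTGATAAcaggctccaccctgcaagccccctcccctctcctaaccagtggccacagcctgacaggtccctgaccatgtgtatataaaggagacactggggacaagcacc
Hbb-y (chr7:103853208-103853457, minus strand): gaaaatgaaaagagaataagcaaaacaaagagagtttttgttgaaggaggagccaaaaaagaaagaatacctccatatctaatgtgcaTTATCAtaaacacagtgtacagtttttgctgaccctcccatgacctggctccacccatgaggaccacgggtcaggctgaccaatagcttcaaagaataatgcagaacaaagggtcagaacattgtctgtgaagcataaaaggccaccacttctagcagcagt
Hbb-bs (chr7:103827929-103828178, minus strand): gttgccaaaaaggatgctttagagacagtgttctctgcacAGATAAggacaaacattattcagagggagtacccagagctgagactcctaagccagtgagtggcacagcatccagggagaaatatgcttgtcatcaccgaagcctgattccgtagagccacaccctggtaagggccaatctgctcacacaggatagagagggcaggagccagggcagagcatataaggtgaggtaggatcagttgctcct
Alas2 (chrX:150547167-150547416, plus strand): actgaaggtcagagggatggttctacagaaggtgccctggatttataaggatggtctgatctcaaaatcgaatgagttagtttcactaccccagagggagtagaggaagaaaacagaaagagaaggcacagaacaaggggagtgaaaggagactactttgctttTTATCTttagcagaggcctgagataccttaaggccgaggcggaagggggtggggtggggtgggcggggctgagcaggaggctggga
Slc32a1 (chr2:158610508-158610757, plus strand): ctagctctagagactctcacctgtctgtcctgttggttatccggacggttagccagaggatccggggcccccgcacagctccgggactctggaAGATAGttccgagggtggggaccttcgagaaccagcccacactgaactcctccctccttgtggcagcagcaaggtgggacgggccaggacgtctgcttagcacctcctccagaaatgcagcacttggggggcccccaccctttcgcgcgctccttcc
Cpa3 (chr3:20242182-20242431, minus strand): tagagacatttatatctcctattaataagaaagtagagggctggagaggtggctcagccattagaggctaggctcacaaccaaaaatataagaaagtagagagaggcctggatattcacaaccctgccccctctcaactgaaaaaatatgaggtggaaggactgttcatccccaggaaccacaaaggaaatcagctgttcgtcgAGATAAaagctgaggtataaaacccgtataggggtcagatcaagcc
Counted from the RefSeq starts, the matches began 234 and 108 bases before Hba-x, 162 before Hbb-y, 210 before Hbb-bs, 86 before Alas2, 157 before Slc32a1 and 46 before Cpa3. The GENCODE M21 annotation starts Hba-x at position 32276400 of chromosome 11, inside the window shown, so that by it the second match lies within the gene. Gene positions in GENCODE were chrX:7959260-7978071 for Gata1, chr6:88193891-88207032 for Gata2, chr2:158610767-158615748 for Slc32a1 and chr3:14886273-14900770 for Car2.

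The progenitors held 23992196 spliced UMIs, with a median of 21897.5 per cell and 4029.5 genes, and 11.3% of their spliced and unspliced UMIs were unspliced. Their embryonic globin share ran from 0.501 to 8.32% with a median of 1.79%. In tdTom+ cells with neural markers, which should make no globin, the median share was 0.0135% and the highest was 0.437%, whereas in the tdTom- library the neural-marker cells had a median of 0.0771% and a highest share of 5.29%. In the tdTom- library 372 (4.79%) of the cells outside blood clusters passed the minimum, and in the tdTom+ library 152 (2.07%). The 2 libraries had 18 cell barcodes in common, and 2 of the progenitors carried one of them.

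The rule did not return blood cells alone. Of the 1042 cells, 907 (87.0%) lay in clusters with blood markers, mainly in cluster 6 with 691 cells and cluster 13 with 211. The other 135 lay in clusters of other tissues, 109 of these (80.7%) were called doublets by Scrublet, and their median was 33200 spliced UMIs. Only 1 of the 907 was called a doublet. In the 135 cells the cardiac markers summed to 474 CPM (UMIs of a gene per 1000000 spliced UMIs of the group), the mesoderm markers to 207, the endoderm markers to 80.2 and the neural markers to 58.2, against 18.2, 6.95, 5.11 and 2.55 CPM in the 907. Values without the 135 cells are given where they changed the number of genes past 2-fold, among all genes or in a list named below.

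**Figure D1:**
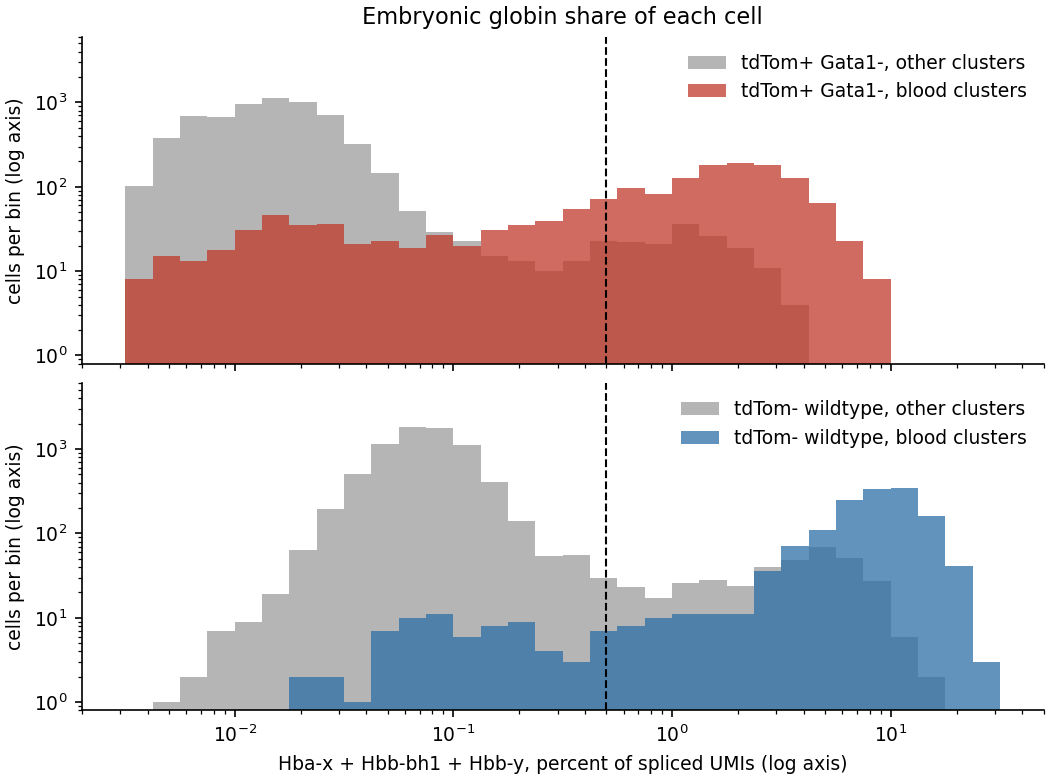
Number of cells (log axis) by the share of spliced UMIs from Hba-x, Hbb-bh1 and Hbb-y (log axis), for tdTom+ cells above and tdTom- cells below, in colour for blood clusters and grey for other clusters, with the dashed line at 0.5%. Cells with no globin UMI are not drawn, and tdTom+ blood cells were spread over the line (67.7% of them lay past it) while tdTom- blood cells lay almost all beyond it (95.5%).

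On both sides of the globin minimum there were tdTom+ cells in blood clusters. The 57 cells just inside it, at 0.5 to 0.6% (41 of them in blood clusters and 13 doublet calls), held Gata2 at 133 CPM, Tal1 at 264 and Klf1 at 79.8, and the 45 cells just outside, at 0.4 to 0.5% and within the Spi1 limit (38 in blood clusters and 6 doublet calls), held 141, 279 and 89.7 CPM. Across the Spi1 limit, the 110 cells with 2 UMIs and the 68 cells with 3 held Laptm5, a lysosomal membrane protein gene of blood cells, at 50.4 and 54.8 CPM, whereas the 715 cells with no Spi1 UMI held it at 14.7 CPM.

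The genes used to label the cells were all present. Gata2 stood at 119 CPM in the progenitors against 20.6 in the other tdTom+ cells, and Myb, a transcription factor of proliferating blood progenitors, at 93.0 against 18.5. Tal1, which encodes the blood-specifying partner of LMO2, stood at 305 against 44.5, and Car2, the red cell carbonic anhydrase, at 1884 against 194 CPM. Slc32a1, which encodes the vesicular transporter of GABA and glycine in neurons, stood at 123 against 11.2 CPM. At least 3 of the 5 genes had a UMI in 1020 cells (97.9%), all 5 in 542 (52.0%), and 2 cells had none. Of the 542, 479 lay in blood clusters. The share of cells with at least 3 was 29.3% in the host cells of the same globin range described next, and 0.621% in tdTom+ neural-marker cells, whose median was 16807 spliced UMIs.

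The progenitors were set beside the 191 tdTom- cells that met the same rule, lay in blood clusters and had a globin share no higher than 4.62%, the 95th percentile of the progenitors. These host cells had a median globin share of 3.25%, a median of 17319 spliced UMIs and a 5th percentile of 2014.5, so they were higher in globin and partly shallower than the mutant cells. Of 8212 genes with at least 100 UMIs in both groups together, 579 (7.05%) were at least 2-fold higher in the progenitors and 232 (2.83%) at least 2-fold lower, with a median log2 fold of 0.02. The progenitors held 23992196 spliced UMIs and the host cells 3127586. A gene seen mainly in the progenitors therefore reached 100 UMIs at a lower CPM than one seen mainly in host cells. For that reason the shares higher and lower are not set against each other. With the 907 blood-cluster cells only, 307 of 7655 genes (4.01%) were higher and 244 (3.19%) lower.

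Gata1 itself was counted in both genotypes, and reads over its mutated exon were not looked at. It stood at 29.0 CPM (696 UMIs) in the progenitors and 158 CPM (493 UMIs) in the host cells, a log2 fold of −2.44 (−2.61 to −2.27). A spliced Gata1 UMI was seen in 45.6% of the progenitors, 85.3% of the host cells and 0.828% of tdTom+ neural-marker cells, and after thinning each cell to 5000 UMIs in 13.9%, 57.1% and 0.212%. Unspliced molecules made up 58.5% (56.1 to 60.9%) of the Gata1 UMIs in the progenitors but 7.16% (5.11 to 9.69%) in the host cells. The gene for the partner of GATA1, Zfpm1, stood at 256 against 270 CPM, and 9.60% against 10.2% of its UMIs were unspliced.

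**Figure D2:**
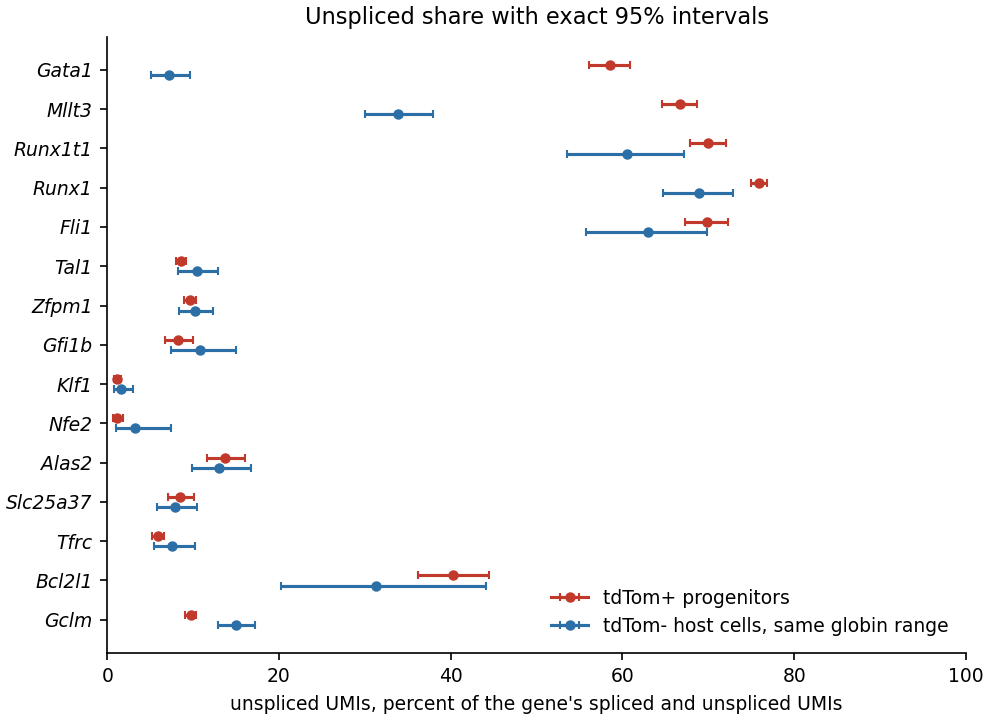
Unspliced UMIs as a percent of all UMIs of a gene in the tdTom+ progenitors (red) and in host cells of the same globin range (blue), with exact binomial 95% intervals. Gata1 and Mllt3 stand apart between the groups, at 58.5 against 7.16% and 66.7 against 33.9%, and the intervals of Klf1, Alas2, Tal1 and Tfrc overlap.

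Another erythroid regulator differed in the same layer. Mllt3, a component of the super elongation complex needed in erythroid and megakaryocytic cells, had a spliced level of 29.3 CPM in the progenitors and 121 in the host cells, a log2 fold of −2.04 (−2.22 to −1.85). Its unspliced share was 66.7% (64.6 to 68.7%) against 33.9% (30.0 to 37.9%). In neural-marker cells, by contrast, its spliced level was 98.9 CPM in the tdTom+ and 107 in the tdTom- library. Smaller differences were present in Runx1 (75.9 against 68.9%) and in the corepressor gene Runx1t1 (70.0 against 60.5%), and in the opposite direction in Gclm, a glutathione synthesis gene, at 9.72 against 15%.

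Among 21 erythroid transcription factor genes measured, 3 were at least 2-fold lower in the progenitors, 1 was higher and 17 lay between, beside 2.83% lower and 7.05% higher among all genes, and the median log2 fold was −0.29 against 0.02. The lower ones were Gata1, Mllt3 and Trim10, a tripartite-motif gene of maturing erythroid cells, at 27.5 against 85.4 CPM. Klf1, the main activator of adult beta globin and many red cell genes, stood at 103 CPM against 176, a log2 fold of −0.78 (−0.91 to −0.64), and Gfi1b, a repressor that acts in red cells and platelets, at 45.7 against 79.6 CPM. Tal1 was at 305 against 203 CPM (log2 0.59), Nfe2 at 62.3 against 47.3 (0.40), Cbfa2t3 at 123 against 79.3 (0.64) and Lmo2 at 245 against 395 CPM (−0.69). Hemgn, which encodes the erythroid protein hemogen, had 36 UMIs in 1042 progenitors and 42 in 191 host cells. The higher one was Sox6, with 403 UMIs in the progenitors and 1 in the host cells, and 91.6% of the Sox6 UMIs in the progenitors were unspliced.

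**Figure D3:**
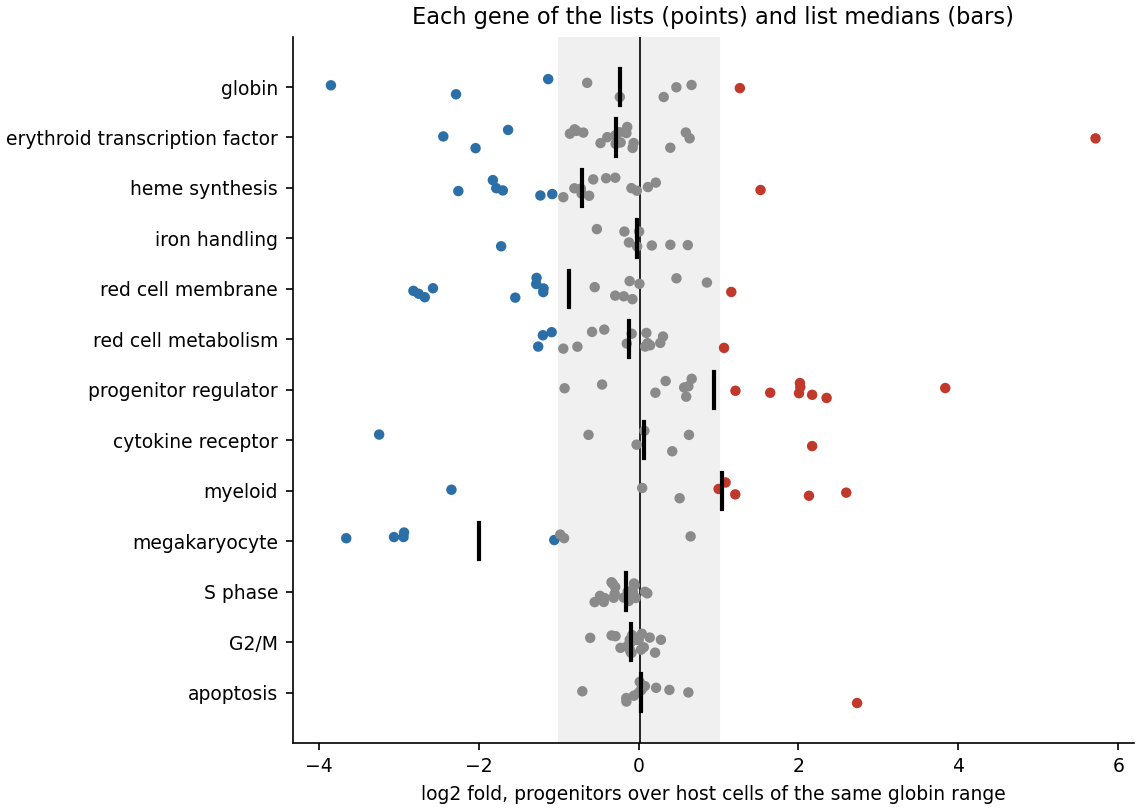
Log2 fold of each measured gene, progenitors over host cells of the same globin range, by gene list. Bars are list medians, the vertical line is the median of all genes at 0.02, the grey band is under 2-fold, and red and blue points lie at least 2-fold higher or lower. Red cell membrane and megakaryocyte genes lie to the left (medians −0.87 and −1.99), progenitor regulators to the right (0.94), and no S phase or G2/M gene lies beyond the band.

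Of 19 heme synthesis genes measured, 6 were at least 2-fold lower in the progenitors, 1 was higher and 12 lay between, beside the same 2.83% and 7.05% of all genes, with a median log2 fold of −0.71 (−0.62 with blood-cluster cells only). Alas2, the erythroid first enzyme of the pathway, stood at 34.3 CPM in the progenitors and 111 in the host cells (log2 −1.70, −1.88 to −1.51). Tmem14c, a mitochondrial carrier of heme precursors, stood at 576 against 1979 CPM, Uros at 18.2 against 64.3 and Alad at 179 against 377. The lower set was completed by Hebp1, a heme-binding protein gene (−2.25), and Ppox (−1.23). Fech, which encodes the enzyme that inserts the iron, was at 116 against 107 CPM, and Cpox at 472 against 578. The gene above 2-fold was Hmox1, whose product breaks heme down, at 22.1 against 7.67 CPM (log2 1.53, 0.94 to 2.18). Its log2 fold became −0.0077 when the level of neural-marker cells was subtracted. Among cells with 0.5 to 1% globin alone, Hmox1 stood at 24.9 CPM in the progenitors and 20.5 (7.53 to 44.7) in the 22 host cells. In that bin Alad stood at 126 against 120 CPM, Uros at 19.5 against 27.4 and Hebp1 at 6.26 against 10.3. Ppox there stood at 28.1 against 47.9, Alas2 at 20.5 against 54.7 and Tmem14c at 532 against 1758.

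Of 9 iron genes measured, 1 was lower, none was higher and 8 lay between, beside 2.83% lower and 7.05% higher among all genes. The receptor for transferrin, Tfrc, stood at 154 CPM in the progenitors and 156 in the host cells, and the ferritin genes Fth1 and Ftl1 at 6963 against 7567 and 6142 against 4662. Slc25a37, the mitochondrial iron importer mitoferrin, was the one past 2-fold, at 50.8 against 167 CPM (log2 −1.72, −1.87 to −1.57). Its unspliced share was about the same in both groups, at 8.48 against 7.92%. Among cells with 0.5 to 1% globin alone, Slc25a37 stood at 35.3 CPM in the progenitors and 30.8 (14.1 to 58.4) in the 22 host cells.

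Genes of the red cell membrane and its skeleton had a lower median than the other erythroid lists. Of 18 measured, 9 were at least 2-fold lower and 1 was higher, beside 2.83% and 7.05% of all genes, with a median of −0.87, or −1.02 in blood-cluster cells, where 2 were higher. Tspan33, an erythroid tetraspanin gene, stood at 19.3 against 136 CPM (log2 −2.82), Add2, the beta adducin gene, at 4.46 against 28.5 and Dmtn, the dematin gene, at 2.96 against 17.6. Sptb, the erythroid beta spectrin gene, was at 4.50 against 13.1 CPM, and Ank1, the erythroid ankyrin gene, had 6 UMIs against 48. Slc4a1, the band 3 anion exchanger gene, had a log2 fold of −0.08. Rhag, the Rh-associated glycoprotein gene, was on the other side at 15.7 against 7.03 CPM (log2 1.16, 0.54 to 1.85), but at −0.27 against all host cells of the rule. Among cells with 0.5 to 1% globin alone, Tspan33 stood at 19.4 CPM in the progenitors and 47.9 in host cells, and Dmtn at 1.71 against 13.7. Add2 there stood at 3.04 against 3.42 and Sptb at 1.90 against 3.42, each on 1 host UMI, and Ank1 had 0 UMIs against 2.

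In the metabolism of red cells, 3 of 16 genes were lower and 1 higher, the latter close to the 7.05% of all genes. The lower genes were Prdx2, the abundant erythroid peroxiredoxin, at 1352 against 3100 CPM, Bpgm, which makes 2,3-bisphosphoglycerate, at 28.3 against 67.5, and Ucp2 at 18.2 against 38.7. Car2, which is among the genes that label the cells, was the higher one, at 1884 against 898 CPM (log2 1.07, 1.01 to 1.12). The glycolytic genes Aldoa and Ldha differed by 0.11 and 0.08 on the log2 scale. Among cells with 0.5 to 1% globin alone, Bpgm stood at 31.7 CPM in the progenitors and 41.0 (21.2 to 71.7) in host cells. Prdx2 there stood at 1247 against 1758 and Ucp2 at 12.5 against 30.8. Of the genes that the study listed for a boost of transcription late in red cell maturation, 88 were in the count tables and 78 were measured, with 25 lower, 4 higher and a median of −0.54, beside 2.83% lower and 7.05% higher among all genes. In blood-cluster cells 74 were measured, with 25 lower, 3 higher and a median of −0.51, beside 3.19% and 4.01% of all genes. That set includes Hba-x, Hbb-bh1 and Hbb-y, by which the cells were chosen, and the host cells were higher in globin. Its counts and median are therefore in part set by the choice of the cells. The study looked at that set in these libraries too, so its direction here is not independent evidence.

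Progenitor regulators were on the other side of the comparison. Of 16 measured, 8 were at least 2-fold higher in the Gata1- cells and none was lower, beside 7.05% and 2.83% of all genes, with a median of 0.94. Gata2 and Myb, counted among the higher ones, are also genes that label the cells, so their part in the count is not independent. Gata2 had 2848 UMIs in the progenitors and 26 in the host cells (119 against 8.31 CPM, log2 3.84, 3.28 to 4.45), and was seen in 76.8% against 10.5% of cells and in 2.97% of tdTom+ neural-marker cells. After thinning the shares were 39.0%, 4.17% and 0.917%. Myb stood at 93.0 against 18.2 CPM, Kit, the receptor for stem cell factor, at 79.2 against 17.6, Lmo4 at 234 against 58.2 and the RNA-binding protein gene Zfp36l2 at 51.8 against 12.8. The remaining 3, Id1, Id2 and Sox4, had log2 folds of 1.65, 2.02 and 1.21 with all cells but 0.79, −0.73 and −0.05 in blood-cluster cells, where 5 of 14 regulators and 4.01% of all genes were higher. Runx1, which starts definitive blood formation, stood at 79.3 against 51.5 CPM (log2 0.62), but within bins of globin share, in blood-cluster cells, its log2 fold was 0.06 (−0.51 to 0.68) at 0.5 to 1%, 0.03 (−0.45 to 0.56) at 1 to 2%, 0.94 (0.57 to 1.34) at 2 to 4% and 1.45 (1.13 to 1.77) at 4 to 8%.

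Genes of other blood lineages differed in both directions. Among 8 myeloid genes measured, 5 were at least 2-fold higher and 1 lower, beside 7.05% and 2.83% of all genes. The higher ones were Plac8 (87.1 against 14.4 CPM), Laptm5 (22.9 against 9.91), Arhgdib (114 against 53.4), Ctsc (19.8 against 9.91) and Spi1, on which the rule set an upper limit in both groups (18.2 against 4.16). For Laptm5 and Arhgdib the difference was not the same over bins of globin share. The 22 host cells at 0.5 to 1% globin also held megakaryocyte genes at a sum of 1502 CPM, against 262 in blood-cluster progenitors. The part of this in the values of that bin was not tested. In blood-cluster cells the log2 fold of Laptm5 was −0.44 (−1.30 to 0.56, on 12 host UMIs) at 0.5 to 1% globin. It was −0.06 (−0.87 to 0.88) at 1 to 2% and 3.07 (1.69 to 4.97) at 2 to 4%. In these bins all myeloid genes summed to 357, 360 and 309 CPM in blood-cluster progenitors and to 400, 243 and 129.7 in host cells. With all progenitors, Arhgdib stood at 118 against 181 CPM at 0.5 to 1% and at 108 against 36.8 at 2 to 4%. Plac8 (80.5 against 10.3 CPM) and Ctsc (20.3 against 3.42) were higher in the progenitors at 0.5 to 1% too, and Spi1 was at 19.2 against 17.1. Ncf4, a subunit gene of the phagocyte oxidase, was lower over all bins compared, at 6.38 against 32.3. The genes that define mature myeloid cells were near 0 in the progenitors, with 1 UMI of Csf1r, 2 of Cebpa, 6 of Lyz2, 3 of Tyrobp and 9 of Mpo among all 1042 cells.

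Megakaryocyte genes were lower in 5 of 8 cases, beside 2.83% of all genes, with a median of −1.99. In blood-cluster cells the count was 3 of 7, beside 3.19% of all genes, and the median −0.99. There F2r (−0.99) was just under 2-fold and Thbs1 (−3.04) had too few UMIs to be counted. Itga2b, the platelet integrin CD41 that also marks the first blood progenitors, stood at 9.50 CPM in the progenitors and 72.6 in the host cells (log2 −2.93, −3.20 to −2.66). Fermt3, the kindlin of blood cells, was at 10.6 against 134 CPM, Rab27b, a gene of granule release, at 5.79 against 48.3, Thbs1 at 2.25 against 17.3 and the thrombin receptor gene F2r at 44.4 against 92.1. Gp5 had 0 UMIs in the progenitors, which allows up to 0.125 CPM, and 18 in the host cells. Host cells with 0.5 to 1% globin held Pf4, a platelet chemokine gene, at 71.8 CPM, and those with 2 to 4% at 1.94, and its part in the megakaryocyte values was not tested. Within the 2 to 4% bin, Itga2b stood at 7.42 CPM in blood-cluster progenitors and 70.3 in host cells, and the megakaryocyte genes summed to 159 and 414 CPM.

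A mast cell gene stood out beside this. Cpa3, the mast cell carboxypeptidase, had 388 UMIs in the progenitors and 1 in the host cells, and was seen in 18.2% of progenitors, 0.524% of host cells and 0.138% of tdTom+ neural-marker cells. Cd63, a lysosomal tetraspanin gene that many cell types share, was at 163 against 76.1 CPM. The defining mast cell genes Ms4a2 and Fcer1a had no UMI, Hdc had 1 and Mitf 19. Cpa3 and Cd63 were the only 2 of the 12 genes of that list with enough UMIs to be compared with the host cells.

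Of 7 cytokine receptor genes measured, 1 was higher and 1 lower, beside 7.05% and 2.83% of all genes. The higher one was Kit. The lower one was Csf2rb, the common beta chain for IL-3, IL-5 and GM-CSF, at 11.5 against 109 CPM (log2 −3.24, −3.48 to −3.01). Epor, the erythropoietin receptor gene, stood at 49.9 against 77.1 CPM (log2 −0.63, −0.83 to −0.42) and was seen in 62.5% of progenitors and 66.5% of host cells. All 4 endothelial genes measured were lower, beside the same 2.83% of all genes, with a median of −1.37. Among them Pecam1 stood at 3.54 against 22.4 CPM and Egfl7 at 11.3 against 30.4. In blood-cluster cells both of the 2 genes measured were lower, beside 3.19% of all genes, with a median of −2.19. Against all host cells of the rule, the endothelial genes Kdr and Etv2 were higher in the progenitors, with log2 folds of 0.77 and 0.41.

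Genes outside these lists included those with the largest difference. Ranked by the bound of the interval nearest 0, the 10 highest in the progenitors were Nrp2, Slc32a1, Rspo3, Ppp1r3g, Fgf15, Rcsd1, Fezf2, Etl4, Dbx2 and Zfp990. Slc32a1 had 2942 UMIs against 9 (123 against 2.88 CPM, log2 5.41, 4.49 to 6.54) and was seen in 83.2% of progenitors, 2.09% of host cells and 2.69% of tdTom+ neural-marker cells. Nrp2, a semaphorin co-receptor gene, had 1527 UMIs against 3, and tdTom+ neural-marker cells held it at 36.5 CPM beside 63.6 in the progenitors. Rspo3 and Fgf15, a Wnt amplifier and a fibroblast growth factor, were at 38.3 and 73.8 CPM in the progenitors, 0.639 and 2.56 in host cells, and 59.1 and 58.8 CPM in neural-marker cells. In blood-cluster cells both remained past 2-fold, at 36.9 and 81.0 CPM. The homeobox and zinc finger genes Dbx2 and Fezf2 and the actin regulator gene Rcsd1 had no UMI in host cells and were at least 15.2-fold, 16.3-fold and 16.6-fold higher, counted against 3 UMIs over the host group. Zfp990 also differed outside blood, with a log2 fold of 6.03 between the neural-marker cells of the libraries.

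The 10 lowest by the same ranking were Prss50, Gm15915, Grb10, Hbb-bs, Sla2, Fermt3, Spef1, Tnni3, Grina and Csf2rb. Prss50, a serine protease gene, had 11 UMIs against 137, and Gm15915 had 47 against 211. The imprinted growth regulator Grb10 was at 8.29 against 134 CPM, and it had a log2 fold of −4.86 in neural-marker cells too. Genes that an earlier account of these libraries put forward were counted as a description only: all 11 genes named as higher were at least 2-fold higher here, and all 9 measured genes named as lower were at least 2-fold lower, which is no independent support since the libraries are the same.

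Which globin genes the progenitors used differed from the host cells. Of all globin UMIs in the progenitors, 32.0% came from Hba-x, 51.7% from Hbb-bh1 and 7.35% from Hbb-y, against 48.8%, 42.5% and 3.24% in host cells of the same range. Over these pooled cells, the ratio of alpha-like to beta-like UMIs was 0.687 against 1.14. The bins of globin share used next are set by the sum of Hba-x, Hbb-bh1 and Hbb-y, so a change of the part of Hba-x over the bins is in some measure built in, and values are compared between progenitors and host cells of the same bin. In progenitors with 0.5 to 1% globin Hba-x gave 16.7% of globin UMIs, and in those with 4 to 8% it gave 41.8%, while in host cells it went from 22.3 to 56.4%. Hbb-bh1 gave 65.7% of globin UMIs in the progenitors and 65.6% in host cells at 0.5 to 1%, and 58.7 and 60.8% at 1 to 2%. It gave 50.2 and 41.6% at 2 to 4%, and 40.8 and 33.1% at 4 to 8%. Over all alpha-like genes, the lower pooled ratio was not seen below 2% globin. Hbb-y took 12.4% (12.3 to 12.6%) of the Hbb-y and Hbb-bh1 UMIs in the progenitors and 7.09% (6.85 to 7.32%) in the host cells, and it was the larger in the progenitors in each bin up to 8%.

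**Figure D4:**
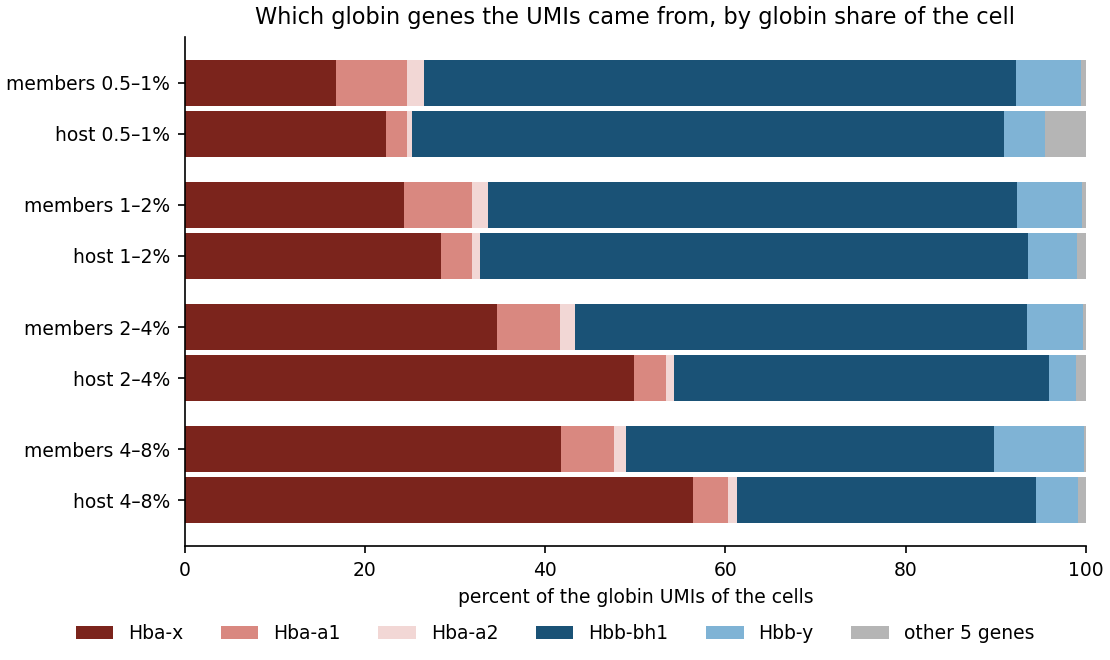
Share of the globin UMIs that came from each globin gene, for tdTom+ progenitors (members) and tdTom- host cells of the rule in blood clusters, in 4 bins of embryonic globin share. Hba-x takes a smaller part in the progenitors than in the host cells of the same bin, and Hba-a1 and Hba-a2, whose division is uncertain since they are near-identical, together take a larger one.

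Adult-type alpha globin was part of the difference between progenitors and host cells, with the same limit on its course over the bins. Of the UMIs of Hba-x, Hba-a1 and Hba-a2, the adult pair gave 36.9% in progenitors with 0.5 to 1% globin, 27.5% at 1 to 2%, 19.8% at 2 to 4% and 14.8% at 4 to 8%. Host cells in these bins had 11.6, 13.3, 8.14 and 7.97%. Hba-a1 and Hba-a2 are near-identical copies, so the division of reads between them is uncertain and their sum is used here. The adult beta genes were lower in the progenitors, with Hbb-bs at 14.5 against 209 CPM (log2 −3.85) and Hbb-bt at 25.4 against 124 (−2.28). These are also close copies of each other, and Hbb-bs had a log2 fold of −4.65 between tdTom+ and tdTom- neural-marker cells, where it stood at 0.318 and 8.0 CPM; its part in the difference was not tested. Hbq1b, an alpha-like theta gene, stood at 38.5 against 16 CPM.

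Since the host cells were higher in globin, levels were also set side by side within bins of globin share. The bins from 0.5 to 8% held 212, 375, 367 and 85 progenitors and 22, 27, 96 and 441 host cells. Beyond 8% there were 3 progenitors and 828 host cells. Megakaryocyte genes summed to 1502 CPM in host cells of the first bin and to 675, 414 and 261 in the bins after it. What part this had in the values of the first bin, such as those of Klf1 and Runx1, was not tested. Alas2 stood at 20.5, 29.4, 42.2 and 61.8 CPM over the bins in the progenitors and at 54.7, 70.0, 114 and 195 in the host cells. Klf1 stood at 88.8, 100.4, 115 and 101.4 CPM in the progenitor bins and at 95.8, 142, 207 and 233 in the host bins. Both groups therefore held more Alas2 where globin was higher, and Klf1 was higher in each host bin than in the one before. In blood-cluster progenitors Klf1 stood at 106, 115, 119 and 101.4 CPM, and its log2 fold over the host was 0.14 (−0.41 to 0.75) in the first bin and −1.20 (−1.43 to −0.98) in the last.

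**Figure D5:**
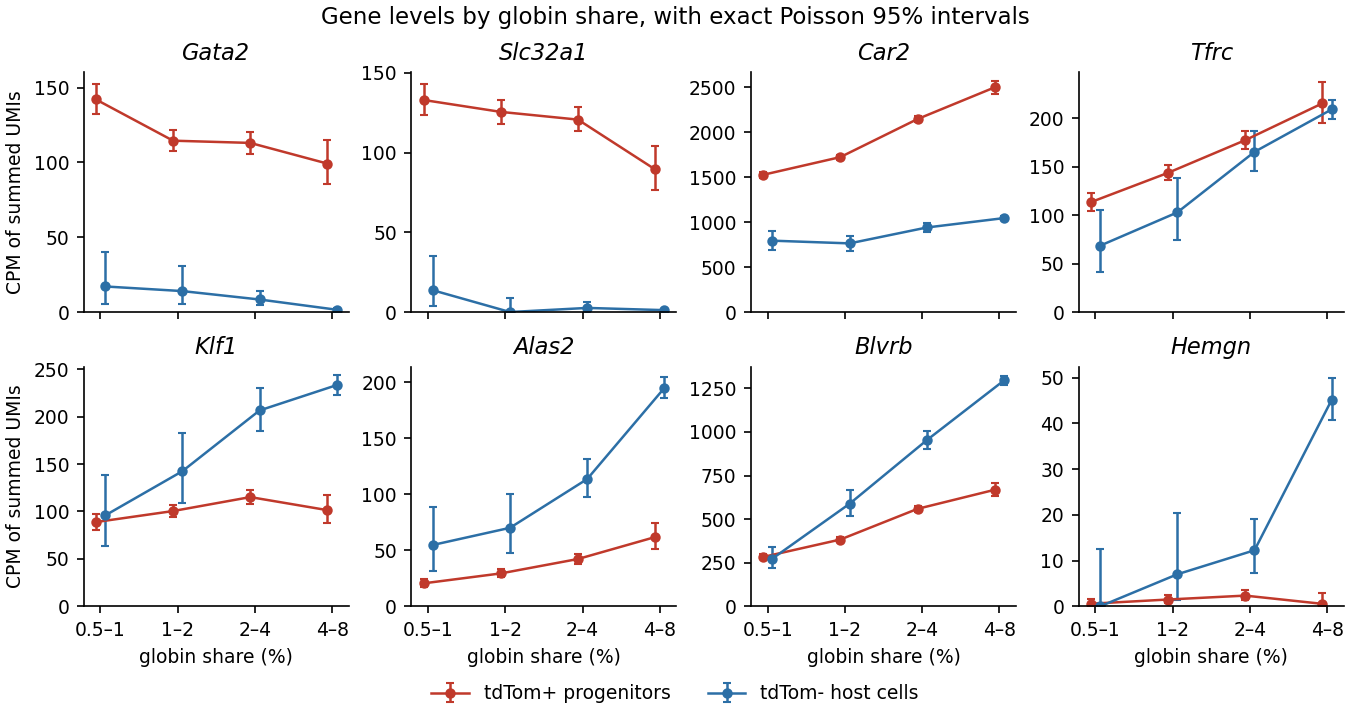
CPM of 8 genes in bins of embryonic globin share, for the tdTom+ progenitors (red) and tdTom- host cells in blood clusters (blue), with exact Poisson 95% intervals. Gata2, Slc32a1 and Car2 lie above the host at each bin, Alas2 below it, and Klf1, Blvrb and Hemgn part from the host as globin goes up, while Tfrc is above the host in the first 2 bins and close to it from 2% upward.

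Gata2 went from 142 CPM in the lowest bin to 99.2 in the 4 to 8% bin of the progenitors and from 17.1 to 1.54 in the host cells. Car2 went from 1526 to 2499 CPM and from 794 to 1045. Hemgn stayed at or under 2.35 CPM in the progenitors and reached 45.1 in the host cells, and Blvrb, a biliverdin reductase gene of red cells, started at 283 and 274 CPM and reached 668 and 1296. Heme synthesis genes summed to 2964 CPM in the lowest and 4600 in the 4 to 8% bin of the progenitors, against 4481 and 8596 in the host cells. Tfrc had 113 and 215 CPM in the same bins of the progenitors and 68.4 and 209 in the host cells. With blood-cluster cells only, its log2 fold was 0.78 (with a lower bound of 0.13) in the 0.5 to 1% bin, 0.61 (0.17 to 1.08) at 1 to 2% and 0.04 (−0.12 to 0.20) at 4 to 8%.

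The 2 to 4% bin held 347 blood-cluster progenitors and 96 host cells. There the log2 fold was 3.81 (3.03 to 4.72) for Gata2, 5.59 (4.23 to 7.47) for Slc32a1, 2.78 for Myb and 1.24 for Car2. On the lower side it was −2.22 (−2.48 to −1.96) for Gata1, −1.40 (−1.67 to −1.13) for Alas2, −0.80 for Klf1, −3.57 for Hbb-bs, −2.22 for Mllt3 and −3.25 for Itga2b. Tfrc (0.11, −0.08 to 0.31), Zfpm1 (0.05, −0.11 to 0.21) and Bcl2l1 (0.06, −0.64 to 0.83), an anti-apoptotic gene of red cells, had intervals that included 0 in that bin. In the 4 to 8% bin Bcl2l1 was at 20.6 against 9.03 CPM (log2 1.19, 0.59 to 1.77), and in the first 2 bins its log2 fold was −0.95 (−2.11 to 0.44) and −0.33 (−1.44 to 1.03).

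None of 20 S phase genes and none of 20 G2/M genes was past 2-fold in either direction, beside 7.05% higher and 2.83% lower among all genes. Their medians were −0.16 and −0.09. Mki67 stood at 249 CPM against 379 and Top2a at 381 against 482. Of 10 cyclin and inhibitor genes, 3 were lower and 1 was higher, beside 2.83% and 7.05% of all genes. Ccne1 (88.3 against 233 CPM), Ccna2 (113 against 267) and Ccnd3 (275 against 566) were the lower ones, and Ccnd1 was the higher one with all cells (27.8 against 6.39) but stood at 4.55 CPM in blood-cluster cells. Ccna2 also stood at 103 against 179 CPM in neural-marker cells. Among 13 apoptosis genes only Bok, which was higher, passed 2-fold, which is close to the 7.05% of all genes. In blood-cluster cells none of 11 did, beside 4.01% higher and 3.19% lower among all genes, so these counts set the list little apart. Bax, Mcl1 and Trp53 differed by 0.04, −0.15 and −0.15 on the log2 scale, and Bid was at 59.1 against 38.4 CPM.

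Within the tdTom+ library, the progenitors were compared with the 204 blood-cluster cells that met the globin minimum but held 3 or more Spi1 UMIs. These had a similar globin share (median 1.60%) and a median of 22529.5 spliced UMIs, and they differ from the progenitors by the Spi1 count that the rule set. Of 8352 genes, 283 (3.39%) were at least 2-fold higher in the progenitors and 234 (2.8%) lower, with a median log2 fold of −0.0032. Without the 135 cells outside blood clusters, 34 of 7816 (0.435%) were higher and 236 (3.02%) lower. Ranked by the bound of the interval nearest 0, the first 10 with all cells were Tcf7l1, Myl7, Fst, Mogat2, Ptn, Nrp1, Sfrp1, Cald1, Hotairm1 and Hoxaas3, and none of them was among the first 12 in blood-cluster cells. Myl7, the atrial myosin light chain gene, fell from 68.9 CPM with all cells to 11.5 in blood-cluster cells, beside 10.2 in the cells over the limit.

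For the erythroid lists among blood-cluster cells, the counts stand beside 0.435% higher and 3.02% lower among all genes. Of 21 erythroid transcription factor genes 2 were higher in the progenitors and 2 lower, of 17 membrane genes 5 were higher and none lower, of 9 iron genes 1 was higher, and none of 16 metabolism genes was past 2-fold. Trim10 stood at 30.1 CPM against 9.61 in the cells over the limit, Tspan33 at 20.2 against 7.94, Slc25a37 at 54.0 against 23.6 and Cpox, which was just under 2-fold, at 509 against 273. Runx1t1 was at 22.5 against 7.52 CPM, and it and Trim10 were named after their values were seen. The genes lower in the progenitors were led by myeloid genes: Tyrobp, an adaptor of myeloid receptors, had 3 UMIs in the 907 progenitors and 98 in the 204 cells, the granule protein gene Srgn 21 and 235, Mpo, the neutrophil peroxidase, 9 and 98, and Fcer1g 63 and 334. Of 13 myeloid genes, 10 were at least 2-fold lower and none was higher, beside 3.02% and 0.435% of all genes. With all 1042 cells 11 of 14 were lower, beside 2.8% of all genes. Both counts include Spi1, which was fixed by the rule at 20.2 against 273 CPM. All 19 heme synthesis genes measured lay within 2-fold, as did all 20 with the 1042 cells, where their median was 0.33.

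Of 17 progenitor regulators, 5 were at least 2-fold lower in the progenitors than in the cells over the limit, 1 was higher and 11 lay between. Among all genes 2.8% were lower and 3.39% higher. The higher regulator was Id2 (log2 2.03), which was at −0.72 in blood-cluster cells. There 5 of 16 regulators were lower and none was higher, beside 3.02% and 0.435% of all genes. Gata2 stood at 119 CPM in the progenitors and 122 CPM in the cells over the limit, and Myb at 93.0 and 182. Kit was at 79.2 against 163 (log2 −1.04, or −0.92 in blood-cluster cells) and Lmo4 at 234 against 520. From other lists, Tal1 was at 305 against 317 CPM and Lyl1, a close relative of Tal1, at 32.4 against 124. Slc32a1 was at 123 against 89.0 and Cpa3 at 16.2 against 44.9 CPM. Hbb-y took 12.4% of the Hbb-y and Hbb-bh1 UMIs in the progenitors and 18.6% (18.4 to 18.9%) in the cells over the limit, in which Hba-x gave 21.6% of globin UMIs.

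The progenitors fell into 5 groups when clustered without globin genes, Spi1 and the listed S phase and G2/M genes. Their leading genes are given as a description. Of those named here, Hbb-bt, Cdc6, Slbp, Nusap1 and Ube2c were left out of the clustering. The histone genes, Orc1 and Dtl were not on the lists left out. Group 1 (310 cells) was led by the histone genes Hist1h1b and Hist1h2ae with Slc25a37 and Scube2, group 2 (243) by Lyl1, Lgals1, Tgfb1, Cmtm7 and Fut8, group 3 (190) by the replication genes Cdc6, Orc1, Dtl and Slbp, and group 4 (161) by Hbb-bt, Fezf2, Gmpr and the mitotic genes Nusap1 and Ube2c. Group 5 (138) was led by Mest, Basp1, Myl7, Krt18 and Cald1, and 110 of its cells (79.7%) were doublet calls, while groups 1 to 4 had none.

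Group 2 had higher levels than groups 1, 3 and 4 of Kit, Myb, Nfe2, Laptm5 and Cpa3, genes that were also higher in the cells over the Spi1 limit than in all the progenitors. It held Kit at 140 CPM, Myb at 146, Nfe2 at 106, Laptm5 at 54.0 and Cpa3 at 33.4, whereas group 1 held 51.7, 66.7, 48.2, 11.1 and 7.71. Over groups 1 to 4, Alas2 was at 46.8, 22.3, 34.8 and 44.0 CPM, and Klf1 at 134, 89.8, 80.5 and 140. Spi1 had no UMI in 46.5% of group 2 and in 73.9 to 76.5% of cells in the other groups. Gata2 differed less, at 126, 145, 91.7 and 145 CPM in groups 1 to 4, and Slc32a1 was at 146, 100.7, 137 and 143, so each of the 4 groups of single blood cells held the genes that label the cells.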

How the data were processed

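Single-cell RNA of 2 sorted fractions was measured with 10x Genomics version 3 chemistry, 1 library each. The authors deposited spliced and unspliced UMI counts per gene and cell, which velocyto had made from the output of Cell Ranger (3.0.2 in the submitters' processing notes), for 18233 cells, and their quality table lists a mitochondrial percent for 18239 barcodes, as deposited. No column of another sample was found. The tdTom+ library held 167940767 spliced UMIs and the tdTom- library 157174026, and the median cell had 17598 and 15996 of them, and each CPM is limited by the UMIs summed in its group.

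The progenitors and the gene lists were chosen with earlier results of these data known. For each group of cells, the spliced UMIs of a gene were added up and given per 1000000 (CPM). A gene entered a comparison with at least 100 UMIs in both groups together and was counted past 2-fold; log2 folds have exact conditional 95% intervals, levels exact Poisson intervals, shares exact binomial (Clopper-Pearson) ones, and a group without a UMI was set to 3 UMIs. With 1 library a fraction and cells not replicates, no test was run. Cells of both libraries were clustered with scanpy 1.11.5 and leidenalg 0.10.2 (1827 variable genes, 50 components, 20 neighbours, resolution 1.5), and a cluster counted as blood with at least 5 of 12 blood markers raised 2-fold after adding 10 CPM. The progenitors were clustered on 1972 genes (20 components, 15 neighbours, resolution 0.5). Scrublet, run per library with an expected rate of 7%, called 394 tdTom+ cells (4.39%) and 538 tdTom- cells (5.81%) doublets. These were kept and left out as an alternative. Named genes were the label and cell type markers, genes the study names, the 4 highest and 4 most different genes of each list, the 10 leading genes per direction of each comparison and 5 per group of progenitors. Other list members and leading genes of blood-cluster cells were named after their values were seen. Thinning drew 5000 UMIs per cell and left out 14 progenitors and 23 host cells. The intervals were checked on simulated Poisson counts without spread between cells or libraries, so the check covers the calculation only. A few genes are not reported here. Scripts used Python 3.11.15, numpy 2.4.6, scipy 1.17.1 and pandas 2.3.3.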

Additional observations from a re-analysis of the deposited data

Results flagged for a closer look

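Sox6, an SRY-box gene whose product represses embryonic globin genes, was higher in tdTom+ than in tdTom- cells of the globin-expressing blood groups, with a log2 fold of 5.72 (403 UMIs in the progenitors, 1 in the host cells), and lower in tdTom+ than in tdTom- neural-marker cells, with a log2 fold of −1.03. The opposite directions drew attention to it, and the difference between the tissues was not tested. The first fold rests on 1 host UMI, so its interval is wide (3.23 to 11).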

How the results depend on the processing

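No paired analysis was possible because each fraction was 1 library. The results were recomputed under 16 alternatives, for 172 genes named in the text or by the rule for naming genes and 19 lists. Of the gene values 2161 kept their size and direction, 523 moved and 24 changed sign. For lists these numbers were 273, 29 and 1, and of 53 counts 24 moved. A globin minimum of 2% left 455 progenitors, 259 genes higher than in host cells, and Sox2 and Meox1 at −0.13 and −0.81. With 0 Spi1 UMIs the fold of Spi1 became −2.38, which the rule itself fixes. Without doublet calls 337 genes were higher than in host cells and 61 higher than in cells over the Spi1 limit, and Meox1, Twist1 and Ptn changed to −0.52, −0.16 and −0.59. In blood-cluster cells only, those counts were 307 and 34, and the sign changed for Sox2 (−1.16), Myl7 (−0.080), Meox1 (−1.19), Twist1 (−1.16), Ccnd1 (−0.49), Tcf7l1 (−0.061), Ptn (−0.98), Sfrp1 (−0.28), Basp1 (−0.14), Id2 (−0.73), Sox4 (−0.047) and the mesoderm median (−0.29). With unspliced UMIs added, 456 genes were higher than in cells over the limit. Subtracting the level of neural-marker cells, which also removes what those cells express themselves, gave 1271 genes lower than in host cells, and 585 higher and 1282 lower than in cells over the limit, with Hmox1 at −0.0077. All host cells of the rule gave 984 genes higher, with Kdr, Etv2, Tgfb1 and Rhag at 0.77, 0.41, 0.67 and −0.27, and averaging host values over globin bins gave 401 lower. A minimum of 20 UMIs gave 1242 higher and 481 lower than in host cells, and 830 and 557 against cells over the limit. A minimum of 500 gave 140 and 92, and 51 and 64. Thinning to 5000 UMIs gave 171 and 94, and 53 and 91, by construction with fewer genes tested, and Mogat2 at −0.11. The mean of each cell's CPM turned Epcam to −0.17. The causes were otherwise not tested. With 191 host cells, genes at a few CPM have wide intervals.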
